A study of Mus musculus with 2 samples.

Results

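Granzyme-low T cells of the day 5 mouse skin wound were selected cell by cell from their measured UMI counts (unique molecular identifiers, the number of transcript molecules counted per gene and cell). A cell was taken when Cd3d, Cd3e and Cd3g together gave at least 2 UMIs, when Gzma, Gzmb and Gzmc together gave fewer than 5, when Csf1r was at 0, and when Col1a1 with Col3a1 and Krt5 with Krt14 each made up less than 0.5% of its UMIs. The rule found 152 cells among the 15514 that passed the quality filter of at least 500 detected genes and at most 6% mitochondrial UMIs. Of these, 91 came from the library labelled PBS and 61 from the library labelled DTX.

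The study sequenced live, 7AAD-negative cells sorted from back skin wounds, taken with a 10 mm punch on day 5 after wounding, on the 10x Chromium 3' v3 platform. Both libraries are labelled as Mrc1-DTR mice on the C57BL/6 background aged 7 to 9 weeks, in which the Mrc1 (CD206) promoter drives the diphtheria toxin receptor. One library was labelled as given PBS and the other as given diphtheria toxin (DTX), which kills cells that carry the receptor. The methods instead describe the control as wild-type mice that also received the toxin, and the files do not settle which is right. Each library pooled 3 mice according to the methods, which state that there were technical but no biological replicates. With 1 library per group no test between the groups was possible, and every interval below is a 95% interval for counting error only, which leaves out the spread between mice, wounds and preparations. Intervals of summed UMIs, and of the log2 ratios of their levels, treat UMIs as independent and also leave out the spread between cells. They are too narrow where few cells hold most of the UMIs.

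Mrc1, the targeted gene, was read first as a check of the labels. Over all filtered cells it gave 5787 UMIs, 65.5 CPM (exact Poisson interval 63.8 to 67.2; UMI counts scaled to the same total), in the library labelled PBS and 16295 UMIs, 267 CPM (263 to 271), in the library labelled DTX. In cells with at least 2 Csf1r UMIs and no CD3 UMI that stayed within the collagen and keratin limits of the rule, Mrc1 was at 382 CPM (369 to 396; 756 of 1083 cells with a UMI) and 418 CPM (410 to 426; 2259 of 3271 cells). Chosen by at least 10 UMIs of the myeloid gene Lyz2 instead, a choice made after the values were seen, 1237 of 1676 such cells had Mrc1 in the library labelled PBS and 2952 of 4420 in the library labelled DTX, at 420 and 397 CPM. Mrc1 was thus higher over all cells of the library labelled DTX than over those of the library labelled PBS, and within the myeloid cells its CPM was higher or lower in the library labelled DTX depending on the marker that chose them. As a check of the labels, the level of Mrc1 over all cells cannot decide, because it also moves with the number of myeloid cells. The Csf1r cells within the limits numbered 1083 in the library labelled PBS and 3271 in the library labelled DTX. Within the myeloid cells Mrc1 gave no clear outcome. The study's text gives the numbers of deposited barcodes, as cells after quality control, for the opposite groups. The libraries also differed in makeup, with Ptprc, the leukocyte gene, in 2401 of 8326 cells of the library labelled PBS and 5198 of 7188 of the library labelled DTX, keratin-rich cells numbering 788 and 61, and collagen-rich cells 2346 and 394. These differences in makeup run in the direction the study reports between its control and depleted wounds, while the barcode numbers run the other way. Whether the labels were exchanged was not tested. The libraries are named by their labels, and every direction below is a direction between the libraries as labelled. The granzyme-low T cells themselves gave 1 Mrc1 UMI in 91 cells and 0 in 61.

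T cells carry an antigen receptor built either from α and β chains or from γ and δ chains, and both kinds depend on the CD3 chains to reach the cell surface and to signal. Mouse skin holds γδ T cells in its epidermis, the dendritic epidermal T cells, which produce growth factors for keratinocytes. It also holds γδ T cells in its dermis, many of which make interleukin-17 and draw neutrophils into a wound. Regulatory T cells, marked by the transcription factor Foxp3, are αβ T cells that restrain inflammation in skin and assist its repair. Granzymes are the serine proteases of cytotoxic granules, and their transcripts are high in killer cells and in activated T cells.

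The library labelled PBS held 12058 barcodes with 105511870 UMIs in total, of which 8326 cells with a median of 9822.5 UMIs passed the filter. The library labelled DTX held 11031 barcodes with 81858751 UMIs, and 7188 of its cells passed with a median of 7350 UMIs. The granzyme-low T cells had a median of 5443 UMIs (range 1441 to 26671) in the library labelled PBS and 6378 (2387 to 34359) in the library labelled DTX. They summed to 597851 and 496060 UMIs, respectively. Their mitochondrial share had a median of 4.45% in the library labelled PBS and 5.05% in the library labelled DTX. The libraries shared 37 barcode sequences, 20 of which passed the filter in both, and none of the 152 cells carried such a barcode.

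The T cell label was checked against Cd3d, Cd3e, Cd3g and Trbc2, a constant segment of the β chain. Cd3g gave 902 UMIs over 86 of the 91 cells of the library labelled PBS and 928 UMIs over 60 of the 61 cells of the library labelled DTX. Cd3d was found in 76 and 58 cells and Cd3e in 74 and 56 cells, but these 3 genes were part of the rule. Trbc2, which the rule did not use, gave 432 UMIs over 74 cells in the library labelled PBS and 306 UMIs over 54 cells in the library labelled DTX. A UMI of Trac, Trbc1, Trbc2 or Trdc was present in 89 of 91 and in 61 of 61 cells, so receptor transcripts were found in all but 2 cells. A single UMI sufficed for this count, and it does not by itself establish a T cell. In the library labelled PBS, 13 cells had no Trdc, Foxp3 or Trac UMI, and their median was 3 CD3 UMIs. Of these, 12 had a UMI of Trbc1 or Trbc2, and the label is least certain for them. Just outside the CD3 threshold, 17 cells of the library labelled PBS and 30 of the library labelled DTX had a single CD3 UMI, and 5 and 4 of them had a UMI of a receptor constant chain. Just inside it, 7 cells of the library labelled PBS and none of the library labelled DTX had exactly 2 CD3 UMIs, and all 7 had a receptor constant chain. At the granzyme threshold, 5 and 2 cells had 4 granzyme UMIs and were kept, and 4 and 3 cells had 5 and were not. The granzyme count was 0 in 54 of the 91 and in 40 of the 61 cells.

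The share of granzyme-low T cells depended on which cells they were counted against. They made up 1.09% (Clopper-Pearson interval 0.881% to 1.34%) of all filtered cells in the library labelled PBS and 0.849% (0.650% to 1.09%) in the library labelled DTX, a log2 ratio of -0.37 (-0.86 to 0.12) whose interval includes 0. This value depended on the filters: with at most 2000 genes per cell 46 and 19 cells remained and the ratio was -1.34 (-2.20 to -0.54), and with the rule applied after thinning it was 0.07 (-0.38 to 0.53). Among cells with a UMI of Ptprc, the gene of the leukocyte antigen CD45, 83 of 2401 (3.46%, 2.76% to 4.27%) were granzyme-low T cells in the library labelled PBS and 52 of 5198 (1.00%, 0.748% to 1.31%) in the library labelled DTX. That log2 ratio was -1.79 (-2.32 to -1.27). The cells with a Ptprc UMI that they were counted against were themselves more numerous in the library labelled DTX, and cells with at least 2 Csf1r UMIs and no CD3 UMI numbered 1303 in the library labelled PBS and 3333 in the library labelled DTX. The granzyme-high cells, which met every other part of the rule but had at least 5 granzyme UMIs, made up 0.625% (52 cells) and 0.612% (44 cells) of all filtered cells. A share per filtered cell moves with the recovery of every other cell type, and a lower share of T cells and a higher yield of other cells cannot be told apart here.

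**Figure D1:**
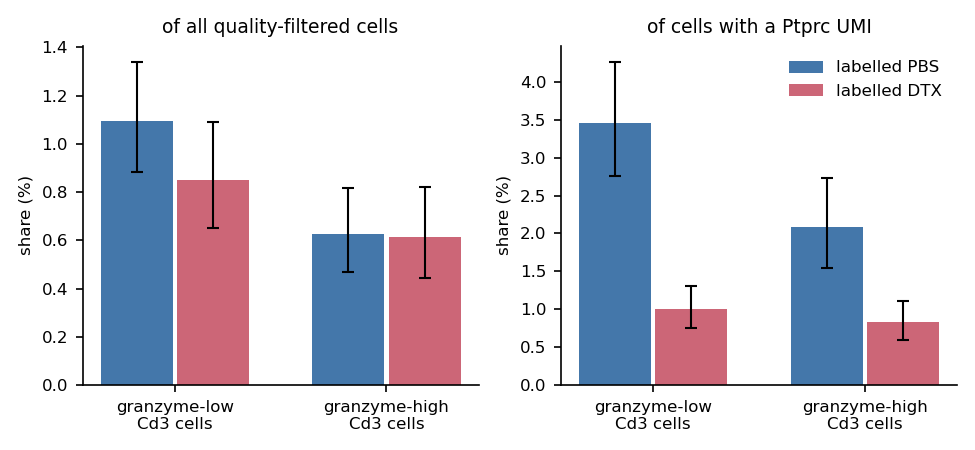
Share of granzyme-low T cells and of granzyme-high CD3 cells in each library, in percent, among all filtered cells and among cells with a Ptprc UMI; bars are the shares, starting at 0, and error bars the 95% Clopper-Pearson intervals (counting error only). Among filtered cells the intervals of the 2 libraries overlap (1.09% and 0.849%), and among Ptprc cells they do not (3.46% and 1.00%).

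The share of cells with a Trdc UMI differed between the libraries. Trdc, the δ chain constant segment at chr14:54142851-54148868 (GRCm38), was detected in 40 of 91 cells (44.0%, 33.6% to 54.8%) of the library labelled PBS and in 44 of 61 (72.1%, 59.2% to 82.9%) of the library labelled DTX, and the intervals do not overlap. The log2 ratio of these shares was 0.71 (0.06 to 1.37). The cells with a Trdc UMI were, however, similar in number, and per filtered cell they made up 0.480% in the library labelled PBS and 0.612% in the library labelled DTX, a log2 ratio of 0.35 (-0.30 to 1.00). Trac, the α chain constant segment, was detected in 43 of 91 and 27 of 61 cells (47.3% and 44.3%). It was found together with Trdc in 6 and 11 cells. The δ locus lies within the α locus, so that a Trac or Trdc UMI names the segment to which the read was assigned and not a productive chain. UMIs of Trbc1 or Trbc2 were no mark of αβ cells either, since Trbc1 and Trbc2 were each found in most cells with Trdc (31 and 30 of 40 in the library labelled PBS). Trbc1 and Trbc2 are near-identical copies, and their separate values are uncertain for that reason.

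The variable segments that could be read were nearly all of one kind. Among the 6 Trdv segments of the annotation, Trdv4 gave 27 of 27 UMIs in the library labelled PBS and 41 of 42 in the library labelled DTX. Trdv4 encodes the Vδ1 segment, which is used both by epidermal γδ T cells and by the Vγ6 cells of the dermis. It was detected in 14 of 91 cells of the library labelled PBS and 24 of 61 of the library labelled DTX, in each case only in cells with Trdc. The γ variable segments gave too few UMIs to tell these kinds apart, with 3 UMIs in the library labelled PBS and 4 in the library labelled DTX for the 6 segments named Tcrg-V, among them 2 and 2 of Tcrg-V5. Of the γ constant segments, Tcrg-C1 gave 259 CPM (UMI counts scaled to the same total of UMIs in each library) in the library labelled PBS and 421 CPM in the library labelled DTX (log2 ratio 0.70, 0.39 to 1.01). Most of the cells lacked a detected coreceptor, 75 of 91 and 51 of 61. Cd4 alone was found in 11 and 8 cells, and Cd8a or Cd8b1 alone in 4 and 2.

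The cells were then divided by Trdc, Foxp3 and Trac UMIs, and the Trdc cells further by Fcer1g, the Fc receptor γ chain that epidermal γδ T cells use in their receptor complex, with at least 2 UMIs counted as Fcer1g-high. The Fcer1g division was chosen after the values were seen and is a description. Among Trdc cells of the library labelled PBS, 30 of 40 had any Fcer1g UMI and 29 were Fcer1g-high. In the library labelled DTX 23 of 44 had any and 20 were Fcer1g-high, so that 1 cell and 3 cells with exactly 1 UMI lay next to the threshold. The Fcer1g-high Trdc cells held a similar share of the granzyme-low T cells in both libraries, with 29 of 91 (31.9%) and 20 of 61 (32.8%) and a log2 ratio of 0.04 (-0.86 to 0.91). The Fcer1g-low Trdc cells were 11 of 91 (12.1%, 6.19% to 20.6%) in the library labelled PBS and 24 of 61 (39.3%, 27.1% to 52.7%) in the library labelled DTX, a log2 ratio of 1.70 (0.62 to 2.88). Per filtered cell they made up 0.132% and 0.334%, a log2 ratio of 1.34 (0.25 to 2.51).

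The Foxp3 cells stood the other way round. They were 21 of 91 (23.1%, 14.9% to 33.1%) in the library labelled PBS and 5 of 61 (8.20%, 2.72% to 18.1%) in the library labelled DTX, with a log2 ratio of -1.49 (-3.26 to -0.05) among granzyme-low T cells and of -1.86 (-3.62 to -0.41) per filtered cell. No cell had both Foxp3 and Trdc UMIs (0 of 91 and 0 of 61), with Clopper-Pearson upper limits of 3.97% and 5.87%. These limit the share of cells with both detected, not of cells that express both. Cells with Trac but neither Trdc nor Foxp3 were 17 of 91 (18.7%) and 11 of 61 (18.0%). Cells with none of the 3 genes were 13 of 91 (14.3%) and 1 of 61 (1.64%), and the 13 were shallow in CD3, with a median of 3 CD3 UMIs against 12 over all granzyme-low T cells of that library. The numbers are small, and a class of 5 cells or fewer is known only within the wide limits given.

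**Figure D2:**
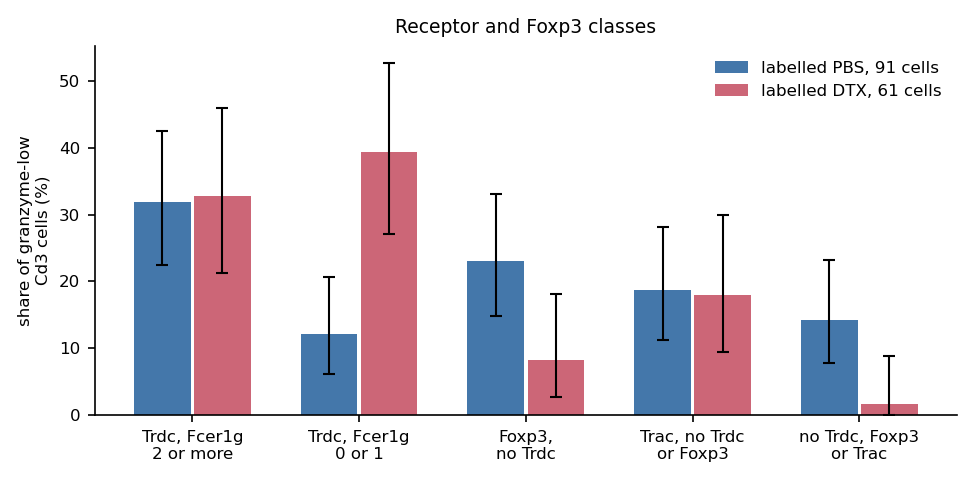
Percent of the granzyme-low T cells of each library (91 PBS, 61 DTX) in the 5 classes set by Trdc, Fcer1g, Foxp3 and Trac UMIs; bars start at 0 and error bars are 95% Clopper-Pearson intervals. The Fcer1g-low Trdc class is larger in the library labelled DTX (39.3% against 12.1%) and the Foxp3 class smaller (8.20% against 23.1%), while the Fcer1g-high Trdc class is alike (32.8% and 31.9%).

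The 2 kinds of Trdc cells differed in other genes than Fcer1g too, in the same direction in both libraries. Several transcripts were found almost only in Fcer1g-high cells. Nkg7, a granule membrane protein, gave 428 UMIs in the 29 Fcer1g-high cells and 1 UMI in the 11 Fcer1g-low cells of the library labelled PBS, and 306 and 0 in the 20 and 24 cells of the library labelled DTX. Cd7, a T and NK cell surface protein, gave 276 against 6 UMIs in the library labelled PBS and 309 against 0 in the library labelled DTX. Cd2, an adhesion receptor, gave 116 against 1 and 103 against 4. Xcl1, a chemokine for cross-presenting dendritic cells, gave 54 and 40 UMIs in Fcer1g-high cells and 0 in Fcer1g-low cells of both libraries. Vegfa, the angiogenic growth factor, gave 54 against 0 UMIs in the library labelled PBS and 37 against 2 in the library labelled DTX. The median CD3 count, which the rule used and which is given as a description only, was 35 and 40 UMIs per cell in Fcer1g-high against 11 and 14.5 in Fcer1g-low cells. The median UMIs per cell were similar (4735 and 5298 against 4747 and 5974.5).

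Other transcripts were higher in Fcer1g-low Trdc cells. Rora, encoding a nuclear receptor of the ROR family that type 17 cells use, was at 1936 CPM in Fcer1g-low and 113 CPM in Fcer1g-high cells of the library labelled PBS. In the library labelled DTX it was at 1882 CPM in Fcer1g-low cells, from 314 UMIs, against 4 UMIs in Fcer1g-high cells. Cd163l1, a scavenger receptor family member known from interleukin-17-producing γδ T cells (chr7:140218267-140231145), was at 873 against 113 CPM in the library labelled PBS and at 851 against 25.5 CPM in the library labelled DTX. Il2ra, the α chain of the interleukin-2 receptor, gave 30 UMIs in Fcer1g-low against 3 in Fcer1g-high cells of the library labelled PBS and 218 against 3 in the library labelled DTX. Il7r gave 28 against 2 and 64 against 3. Cxcr6, a chemokine receptor of tissue-resident lymphocytes, gave 49 against 24 and 279 against 18. Ltb, encoding lymphotoxin β, gave 33 against 4 and 101 against 0. Pdcd1, the inhibitory receptor PD-1, gave 18 against 7 and 99 against 0. Both kinds carried Trdc at like levels, with 3308 CPM in Fcer1g-high and 2525 CPM in Fcer1g-low cells of the library labelled PBS and 4824 and 4496 CPM in the library labelled DTX. Trdv4 was found in both kinds too, with 15 and 12 UMIs in the library labelled PBS and 15 and 26 in the library labelled DTX.

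**Figure D3:**
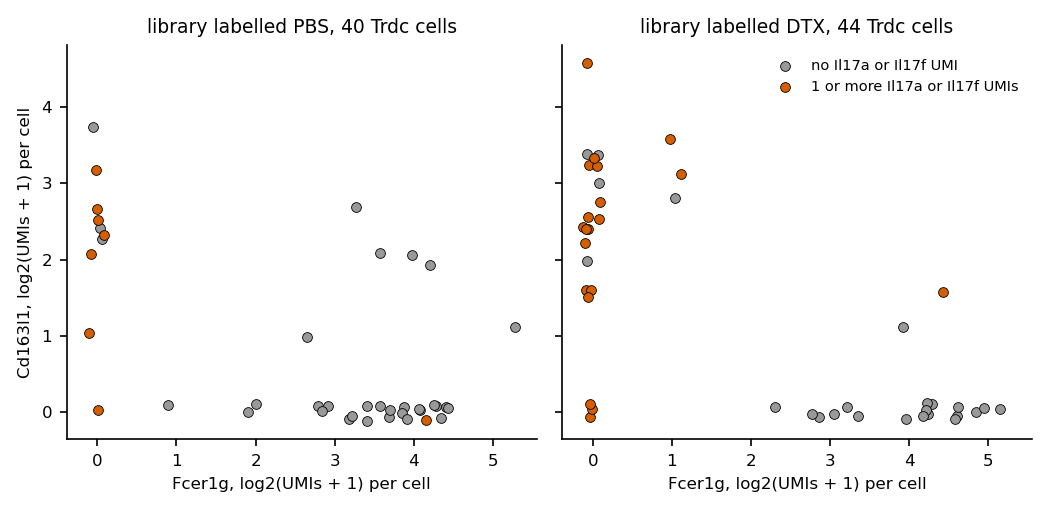
Each point is 1 granzyme-low T cell with a Trdc UMI, placed by its Fcer1g UMIs (horizontal) and Cd163l1 UMIs (vertical), both as log2(UMIs + 1) with a small random shift, and orange points have a UMI of Il17a or Il17f. The orange points lie at low Fcer1g, apart from 1 cell in each library, and the Fcer1g-low cells are 11 in the library labelled PBS and 24 in the library labelled DTX.

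Within each kind, the libraries were then compared. Among Fcer1g-low Trdc cells the levels of Rora (log2 DTX/PBS ratio -0.04, -0.37 to 0.30) and Cd163l1 (-0.04, -0.53 to 0.48) had intervals around 0. Il2ra was higher in these cells of the library labelled DTX, at 1307 CPM against 569 CPM (log2 ratio 1.20, 0.64 to 1.80). Icos, a costimulatory receptor, was at 1631 CPM against 588 CPM (1.47, 0.93 to 2.06). Tgfb1, the growth factor TGF-β1, was at 570 CPM against 152 CPM (1.91, 0.87 to 3.16), the latter from 8 UMIs. Zeb2, a transcriptional repressor, gave 3 UMIs in the 11 cells of the library labelled PBS and 165 UMIs in the 24 cells of the library labelled DTX, which is 56.9 CPM against 989 CPM. Zeb2 was also higher in the other cells of the library labelled DTX, at 559 CPM against 218 CPM over all other filtered cells and at 710 CPM against 391 CPM in the Csf1r cells, and the part of those cells' RNA in the result was not tested. Among Fcer1g-high cells, Nkg7 (-0.14, -0.35 to 0.08) had an interval that includes 0.

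Areg encodes amphiregulin, an epidermal growth factor receptor ligand made by several kinds of skin T cell, and it lies at chr5:91139599-91148432. It gave 814 UMIs over 53 cells of the library labelled PBS and 761 UMIs over 39 cells of the library labelled DTX, 1362 CPM and 1534 CPM (log2 ratio 0.17, 0.03 to 0.32). Its direction was not stable, at -0.46 with fewer than 2 granzyme UMIs in place of 5 and at -0.04 without the highest cell of each library. Fcer1g-high Trdc cells held most of it, at 3142 CPM in the library labelled PBS and 3660 CPM in the library labelled DTX. Fcer1g-low Trdc cells were at 2734 CPM and 1643 CPM (log2 ratio -0.73, -1.03 to -0.43). Foxp3 cells were at 137 CPM and 255 CPM, from 26 and 15 UMIs. Areg was thus mainly a transcript of Trdc cells here, and less one of Foxp3 cells.

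For a comparison over all genes, UMIs were summed over the granzyme-low T cells of each library and expressed as CPM, and 3380 of the 13065 genes with a UMI had at least 50 UMIs over both libraries. A gene was called higher or lower when its level differed at least 2-fold. By this rule 95 genes were higher in the library labelled DTX, 2.81% of those tested, and 48 genes were lower, 1.42%. The median log2 ratio over all tested genes was 0.05. Single cells weighed on these calls: for 12 of the 95 higher and 18 of the 48 lower genes, 1 cell held more than 50% of the UMIs of the library with the higher level. Without the highest cell of each library, 77 of the 95 and 44 of the 48 remained past 2-fold. A gene low in 1 library could reach 50 UMIs through the other, so the counts over gene lists below are descriptions.

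The type 17 list has 18 genes, of which 9 had enough UMIs, and 7 of these rose in the library labelled DTX and none fell, with a median log2 ratio of 1.27. Over all tested genes 2.81% were higher, and the median was 0.05. Without a second library in each group, this count has no test. Of the 7, Blk and Ckb had 18 and 31 UMIs in the library labelled PBS and reached 50 UMIs only with those of the library labelled DTX. The list was chosen with earlier results of these data known, and its count is given as a description. Genes of the list below 50 UMIs included the cytokine receptors Il23r and Il1r1. Il23r gave 3 and 8 UMIs and Il1r1 13 and 27 UMIs.

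The genes of this list that rose were Il17a and Il17f, Cd163l1, the transcription factor gene Maf, Blk, Tmem176a and Ckb. Cd163l1 gave 63 UMIs over 15 cells in the library labelled PBS and 145 UMIs over 23 cells in the library labelled DTX, a log2 ratio of 1.47 (1.04 to 1.92). Maf gave 78 and 161 UMIs, a log2 ratio of 1.31 (0.92 to 1.72). Blk, a Src-family kinase that γδ T cells of this kind express, gave 18 UMIs over 7 cells and 36 UMIs over 21 cells (1.27, 0.42 to 2.17). Rora did not pass 2-fold, with 477 and 508 UMIs (0.36, 0.18 to 0.54). Cd163l1 and Rora rose or were higher over all granzyme-low T cells, whereas within Fcer1g-low Trdc cells their levels had intervals around 0, as given above.

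Il17a and Il17f encode the cytokines interleukin-17A and interleukin-17F, which act on keratinocytes and fibroblasts and bring in neutrophils. They lie near each other on chromosome 1, Il17a at chr1:20730905-20734496 on the plus strand and Il17f at chr1:20777146-20790617 on the minus strand. The RefSeq start of Il17f lies inside this GENCODE interval, since the annotations place its start differently. Their promoters are shown because both genes were measured in the same cells. The sequences are the 150 bases before each RefSeq transcription start in GRCm38.p6, written 5' to 3' on the gene's own strand, chr1:20730755-20730904 for Il17a and chr1:20784271-20784420 for Il17f. Capitals mark AGGTCA, the core recognition site of ROR-family nuclear receptors, or its reverse complement TGACCT, searched on both strands.
Il17a: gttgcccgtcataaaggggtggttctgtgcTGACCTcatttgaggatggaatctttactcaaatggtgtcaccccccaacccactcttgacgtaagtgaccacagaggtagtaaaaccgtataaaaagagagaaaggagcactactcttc
Il17f: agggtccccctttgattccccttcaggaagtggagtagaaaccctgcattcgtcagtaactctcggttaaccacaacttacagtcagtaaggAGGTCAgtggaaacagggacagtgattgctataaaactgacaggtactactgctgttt
The match lies 115 to 120 bases before the start in Il17a, as the reverse complement, and 53 to 58 bases before the start in Il17f. Of 32851 promoter windows of the same length, 8.58% hold these letters on either strand, and a match is a description of the sequence, not a measured binding site.

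Il17a gave 75 UMIs over 10 cells of the library labelled PBS and 342 UMIs over 19 cells of the library labelled DTX, which is 125 CPM and 689 CPM (log2 ratio 2.46, 2.09 to 2.84). Il17f gave 57 UMIs over 10 cells and 285 UMIs over 18 cells, 95.3 CPM and 575 CPM (log2 ratio 2.59, 2.18 to 3.03). A UMI of either gene was present in 14 of 91 cells (15.4%, 8.67% to 24.5%) in the library labelled PBS and in 26 of 61 (42.6%, 30.0% to 55.9%) in the library labelled DTX. Counting only cells with at least 3 such UMIs gave 6 and 17 cells. The 2 libraries therefore differed in how many cells made these transcripts as well as in the summed UMIs.

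The summed UMIs rested on few cells. One cell of the library labelled DTX held 153 Il17a and 229 Il17f UMIs, 382 of the 627 in that library, and the highest cell of the library labelled PBS held 51 of 132. Without the highest cell of each library for the gene, the log2 ratio was 2.62 for Il17a and 1.22 for Il17f. The result also depended on where the granzyme threshold lay. With fewer than 2 granzyme UMIs allowed, 69 and 47 cells remained, Il17a gave 74 and 73 UMIs (0.14, -0.34 to 0.63) and Il17f gave 56 and 50 UMIs (-0.00, -0.58 to 0.57), so that the rise in summed UMIs was gone. The 3 cells of the library labelled DTX with the most Il17a, at 153, 67 and 42 UMIs, held 2, 3 and 2 granzyme UMIs. The number of positive cells did not follow, with 13 of 69 cells in the library labelled PBS and 22 of 47 in the library labelled DTX under the stricter threshold.

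Most of the Il17 UMIs lay in the Fcer1g-low Trdc cells, where 7 of 11 cells in the library labelled PBS and 19 of 24 in the library labelled DTX had a UMI of either gene. These cells held 115 and 581 of the UMIs of both genes. Within this class the log2 ratio was 0.67 (0.38 to 0.98), and -0.03 without the highest cell of each library. With fewer than 2 granzyme UMIs in place of 5, the class had 10 and 16 cells with 115 and 77 UMIs of both genes, and the ratio turned to -1.81 (-2.24 to -1.38), with 7 of 10 and 15 of 16 cells positive. The Fcer1g-high Trdc cells held no Il17a UMI in either library and 1 and 4 Il17f UMIs. Cells with Trac but neither Trdc nor Foxp3 had an Il17 UMI in 2 of 17 and in 6 of 11 cells. Outside the granzyme-low T cells, Il17a gave 30 UMIs in 11 of 8235 other filtered cells of the library labelled PBS (0.34 CPM) and 343 UMIs in 17 of 7127 of the library labelled DTX (5.66 CPM), of which 159 lay in 1 cell. The other cells of the library labelled DTX thus held about as many Il17a UMIs as the 342 of the granzyme-low T cells, and granzyme-high cells held 15 of them. Among Csf1r cells, which should lack it, 0 of 1303 (a share of up to 0.230%) and 6 of 3333 (0.180%) had an Il17a UMI.

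**Figure D4:**
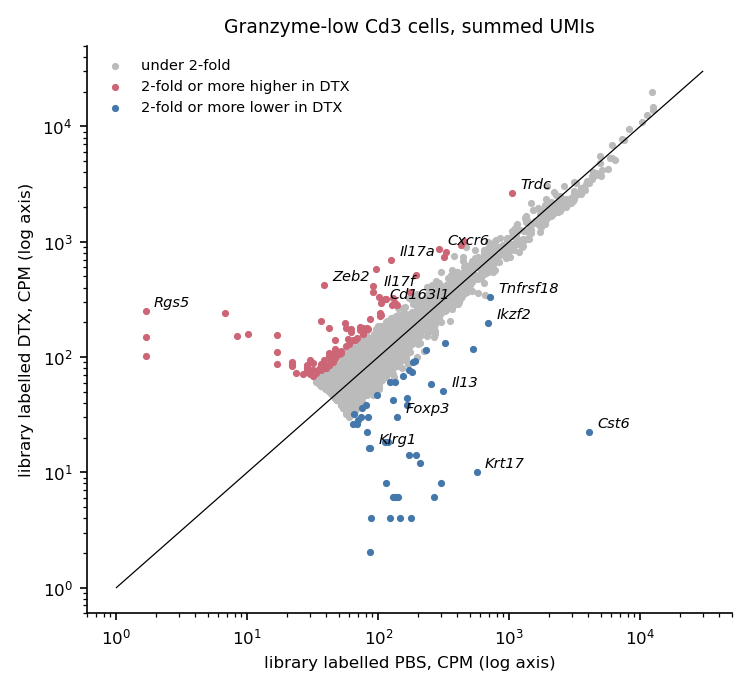
Level of each gene over the granzyme-low T cells in CPM, library labelled PBS on the horizontal and library labelled DTX on the vertical axis, both on log scales, for the 3380 genes with at least 50 UMIs. Genes at 0 in the library labelled DTX are drawn at a floor of 3 UMIs. Genes past 2-fold are coloured (95 higher and 48 lower in the library labelled DTX) and Il17a and Il17f lie far above the diagonal, with Foxp3 and Ikzf2 below it.

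Of the 16 genes of the regulatory T cell list 12 were tested, of which 4 fell in the library labelled DTX and none rose, with a median log2 ratio of -0.58, beside 1.42% lower and 2.81% higher over all tested genes. Among the 4, Foxp3 and Klrg1 had 15 and 8 UMIs in the library labelled DTX and reached 50 UMIs only through the library labelled PBS. The list was chosen with earlier results of these data known, and its count is given as a description. Foxp3 itself (chrX:7573644-7595245) gave 83 UMIs over 21 cells of the library labelled PBS and 15 UMIs over 5 cells of the library labelled DTX, a log2 ratio of -2.20 (-3.10 to -1.39). Ikzf2, encoding the transcription factor Helios, gave 412 and 98 UMIs (-1.80, -2.14 to -1.48). Tnfrsf18, the costimulatory receptor GITR, gave 427 and 165 UMIs (-1.10, -1.37 to -0.84). Klrg1, an inhibitory receptor of terminally differentiated T cells, gave 52 UMIs over 15 cells and 8 UMIs over 3 cells (-2.43, -3.72 to -1.35). The list did not move as one, since Areg, Tnfrsf9, Capg and Il2ra had log2 ratios above 0. Il2ra gave 226 and 371 UMIs (0.98, 0.74 to 1.23), just short of 2-fold, of which 33 and 221 lay in Trdc cells.

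Within Foxp3 cells the comparison has 21 against 5 cells. Tnfrsf18 was at 1119 CPM in the library labelled PBS and 1005 CPM in the library labelled DTX (-0.16, -0.60 to 0.27), so its fall over all granzyme-low T cells was not seen within the class. Ikzf2 was at 1151 and 715 CPM (-0.69, -1.20 to -0.20). Outside the Foxp3 cells Ikzf2 was also lower, at 735 CPM in the library labelled PBS against 128 CPM in the library labelled DTX among Trac cells without Foxp3, and at 345.5 against 130 CPM among Trdc cells. Ctla4, the inhibitory receptor of regulatory T cells, gave 199 UMIs in the Foxp3 cells of the library labelled PBS and 89 in those of the library labelled DTX. These are raw counts from Foxp3 cells that summed to 189471 and 58732 UMIs. Relative to these totals, Ctla4 was higher in the library labelled DTX. It gave 34 and 43 UMIs in the Trac cells without Foxp3. Il1rl1, the interleukin-33 receptor, gave 73 UMIs in the Foxp3 cells of the library labelled PBS and 12 in those of the library labelled DTX. Relative to the totals of the Foxp3 cells it was lower in the library labelled DTX. No interval is given for Ctla4 or Il1rl1, and both directions rest on the 5 Foxp3 cells of the library labelled DTX.

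**Figure D5:**
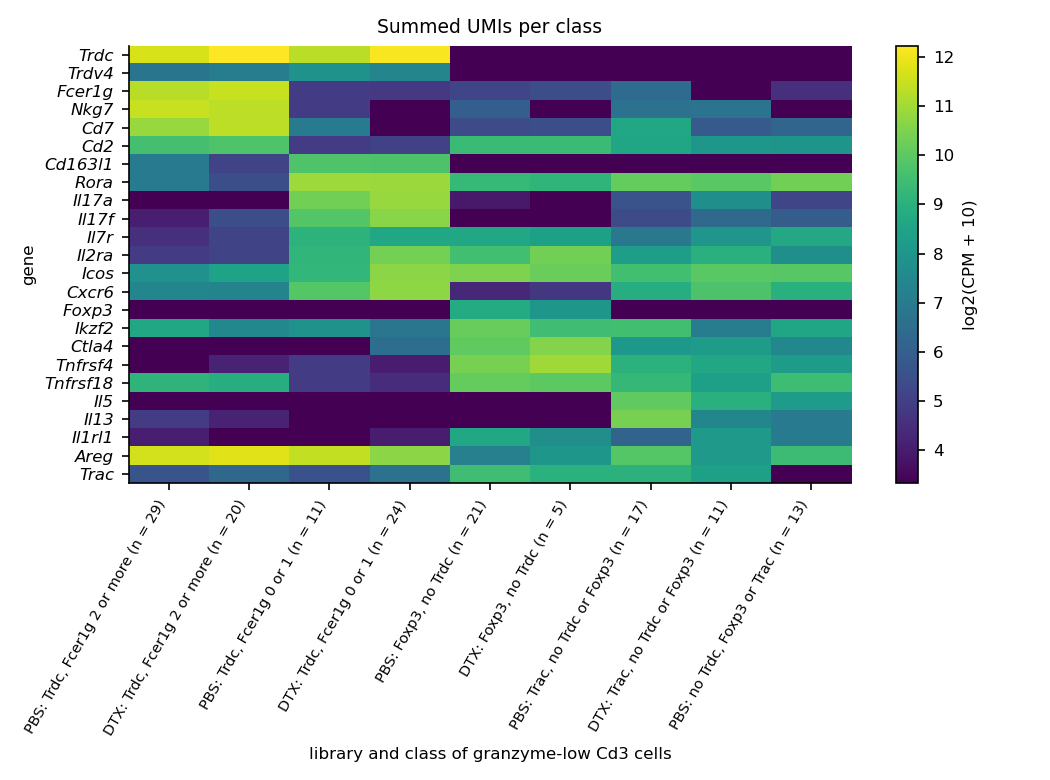
Level of 24 genes (rows, colour as log2(CPM + 10) of summed UMIs) in the classes of granzyme-low T cells of each library (columns, with the number of cells; a class of 1 cell in the library labelled DTX is left out). Il17a, Rora and Cd163l1 are high in the Fcer1g-low Trdc class, Nkg7 and Cd7 in the Fcer1g-high class and Ikzf2 and Tnfrsf18 in the Foxp3 class, in both libraries.

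Type 2 cytokines were present but came from single cells. Il13, encoding interleukin-13, gave 188 UMIs over 8 cells in the library labelled PBS and 25 UMIs over 3 cells in the library labelled DTX (log2 ratio -2.64, -3.31 to -2.04), and 1 cell held 175 of the 188 and 1 cell 23 of the 25. Both of these cells had Trac and neither Trdc nor Foxp3, but they lay near the CD3 threshold. The cell of the library labelled PBS had 2 CD3 and 2 Trac UMIs among its 17575 UMIs. The cell of the library labelled DTX had 4 CD3 UMIs and 1 Trac UMI among its 6378. Whether they were T cells was not tested. Il5 gave 158 and 74 UMIs over 3 cells each. Of the 9 tested genes of the type 2 list, 1 rose and 1 fell (median -0.28), where 2.81% of all tested genes were higher and 1.42% lower. Of the type 1 list, none of 4 tested genes passed 2-fold (median 0.27), and Ifng, encoding interferon-γ, gave 31 UMIs over 6 cells in the library labelled PBS and 1 UMI in the library labelled DTX, below the 50 UMIs required.

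Among the 12 tested cytokines and growth factors, 4 rose and 2 fell in the library labelled DTX (median 0.86), beside 2.81% higher and 1.42% lower over all tested genes. Tgfb1 gave 115 UMIs over 58 cells and 253 UMIs over 57 cells (log2 ratio 1.41, 1.08 to 1.74). Most cells of both libraries held it, and it was higher in the library labelled DTX in each of the classes with Trdc, Foxp3 or Trac, with intervals above 0. Granzyme-high cells were at 255 and 332 CPM of Tgfb1 (0.38, 0.01 to 0.76). Tnfsf8, the ligand of CD30, gave 28 and 58 UMIs (1.32, 0.65 to 2.03). Ccl5, a chemokine of cytotoxic and memory T cells, fell from 108 UMIs over 15 cells to 37 UMIs, all in 1 cell (-1.28, -1.86 to -0.73). Tnfsf11, encoding RANKL, gave 49 and 74 UMIs (0.86, 0.32 to 1.42) and did not pass 2-fold.

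Of the 8 tested genes of tissue retention and homing, 2 rose and none fell (median 0.23), where 2.81% of all tested genes were higher and 1.42% lower. These were Cxcr6, with 173 and 431 UMIs (1.59, 1.33 to 1.85), and Cxcr4, the receptor for CXCL12, with 37 and 87 UMIs, 61.9 and 175 CPM (interval of the log2 ratio 0.93 to 2.10). Cxcr6 was higher in the library labelled DTX within Fcer1g-low Trdc cells (0.85, 0.40 to 1.32) and within Trac cells without Foxp3 (0.87, 0.42 to 1.34), but not within Fcer1g-high Trdc cells (-0.07, -1.03 to 0.88). Of the 11 tested genes of activation and checkpoints, 1 rose and 1 fell (median 0.18). Pdcd1 rose with 80 and 146 UMIs (1.14, 0.73 to 1.55). Of the 20 genes of the T cell receptor complex and its signalling, 2 fell and none rose (median 0.04), among them the costimulatory receptor Cd28 with 110 UMIs over 35 cells and 45 UMIs over 10 cells (-1.02, -1.55 to -0.51). This list holds Cd3d, Cd3e and Cd3g, by which the cells were chosen, so that its count and median are given as a description only.

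Few genes of the other lists passed 2-fold, as did few of all tested genes (2.81% higher and 1.42% lower). None of the 16 tested cell cycle genes passed 2-fold (median -0.06), and Mki67, the proliferation marker, was found in 31 of 91 cells (34.1%, 24.5% to 44.7%) and 22 of 61 cells (36.1%, 24.2% to 49.4%). None of the 13 tested genes of glycolysis and hypoxia (median 0.02), none of the 6 tested interferon-stimulated genes (median 0.21) and none of the 7 tested epidermal γδ T cell genes (median 0.16) passed it. Of the 14 tested immediate early and heat shock genes, 1 fell (median -0.28). Of the 7 tested cytotoxic genes outside the rule 1 fell (median -0.23), of the 13 cytokine receptors 1 rose (median 0.06), and of the 3 naive and recirculation genes none passed 2-fold (median 0.05). Of the 4 tested γδ chain genes, Trdc rose, with 629 and 1318 UMIs (1.34, 1.20 to 1.48), and the median was 0.81. The only tested coreceptor, Cd4, gave 22 UMIs over 12 cells and 38 UMIs over 8 cells (1.06, 0.26 to 1.89), and its direction turned when cells were weighted equally (-0.15).

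Transcripts of other cell types were present in the granzyme-low T cells, and those of some types, but not of all, differed between the libraries. All 7 tested keratinocyte markers were lower in the library labelled DTX, beside 1.42% of all tested genes. Krt17 gave 337 and 5 UMIs, Krtdap 85 and 3, Dmkn 69 and 4, Krt14 67 and 9, and Perp 99 and 19. These genes had enough UMIs to be tested only through the library labelled PBS, so their fall was largely set by that requirement. Lgals7 (316 and 58 UMIs) and Sfn (193 and 65 UMIs) had enough in either library. The count of 7 is therefore a description. The rule limited Krt5 and Krt14, which are on this list, and Krt14 is among the 7. The 12 markers of that list summed to 2195 CPM in the library labelled PBS and 359 CPM in the library labelled DTX, with Krt17 the most abundant in the former and Sfn in the latter, and 0 and 1 of them at 0. Filtered cells rich in keratin, with at least 1% of their UMIs from Krt5 and Krt14, also differed in number, with 788 in the library labelled PBS and 61 in the library labelled DTX. The 10 largest falls over all genes were those of Cst6 (2446 UMIs against 11), Krt17 (337 against 5), Gm47283, Sprr1a, Cldn4, Defb6, Klk7, Sbsn, Krtdap and Ly6g6c. Most of them rested on single cells. One cell of the library labelled PBS held 2378 of its 2446 Cst6 UMIs and 1 held 311 of its 337 Krt17 UMIs. One cell likewise held 141 of 158 Sprr1a UMIs, 156 of 179 Defb6 UMIs, 77 of 87 Klk7 UMIs, 45 of 52 Cldn4 UMIs and 75 of 82 Ly6g6c UMIs. Gm47283, by contrast, was spread over 54 cells of the library labelled PBS with 107 UMIs and gave 2 UMIs in the library labelled DTX; it was also lower in the other filtered cells of the library labelled DTX, at 2.95 CPM against 171 CPM.

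The 10 fibroblast markers, among which the rule limited Col1a1 and Col3a1, summed to 791 and 607 CPM, with Dcn and Sparc the most abundant and none at 0. The 8 neutrophil markers summed to 85.3 CPM in the library labelled PBS and 419 CPM in the library labelled DTX. Il1r2 was the most abundant in both, and 4 and 1 of the markers were at 0. Both tested markers, Il1r2 and S100a9, rose (2.81% of all tested genes were higher). S100a9, with 5 and 75 UMIs, had enough UMIs to be tested only through the library labelled DTX, where 1 cell held 72. Without the highest cell of each library, the log2 ratio was 0.27 for S100a9 and 0.998 for Il1r2, both short of 2-fold. The count therefore does not show a rise of neutrophil markers as a set. The 8 endothelial and mural markers summed to 56.9 and 389 CPM, led by Pecam1 and by Rgs5, with 3 and 3 at 0. The 14 macrophage and monocyte markers summed to 527 and 528 CPM, led by Cd74, with 4 and 1 at 0, among them Csf1r, which the rule held at 0. The 10 dendritic markers summed to 122 and 109 CPM, led by H2-Ab1, with 4 and 3 at 0. The 8 B and plasma cell markers summed to 88.7 and 48.4 CPM, led by Ighm, with 6 and 6 at 0. The 7 mast cell markers summed to 33.5 and 14.1 CPM, led by Kit, with 2 and 4 at 0. The 10 NK and ILC markers summed to 1211 and 1449 CPM, led by Fcer1g, which the epidermal γδ T cells also use, with 2 and 6 at 0. Without the cells that held over 100 UMIs of keratinocyte, fibroblast, mural or Cst6 genes, 89 and 60 cells remained, 88 genes were higher and 40 lower, and the log2 ratio was 2.51 for Il17a, -2.14 for Foxp3 and -2.40 for Cst6. Beyond this, the part of other cells' RNA in the results was not tested.

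The 10 largest rises included several such genes. Rgs5, a mural cell gene, gave 1 UMI in the library labelled PBS and 125 in the library labelled DTX, of which 122 lay in 1 cell. S100a9, a neutrophil gene, gave 5 and 75 UMIs, of which 72 lay in 1 cell. Col4a1, a basement membrane collagen, gave 1 and 74 UMIs, of which 73 lay in 1 cell, and its log2 ratio went from 6.48 to -1.32 without the highest cell of each library. Igfbp7 gave 10 and 77 UMIs, of which 64 lay in 1 cell, and its ratio went from 3.21 to 0.80. Cxcl3, Bcl2a1a, Gm45716, Zeb2 and Il17f were also among the largest rises. Bcl2a1a, a BCL2 family survival gene that neutrophils and activated leukocytes express, gave 6 UMIs over 3 cells and 78 UMIs over 20 cells, and its copies share reads. Cxcl3, a neutrophil chemokine, gave 4 and 119 UMIs. In all other filtered cells, Cxcl3 was at 113 CPM in the library labelled PBS and 655 CPM in the library labelled DTX, so that it was higher in the surrounding cells of the library labelled DTX too.

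Shares of cells with a UMI depend on depth, and each cell was therefore also thinned to 2000 UMIs, which left 87 of the 91 cells of the library labelled PBS and all 61 of the library labelled DTX. Trdc was then found in 41.4% and 70.5% of cells (44.0% and 72.1% unthinned), Foxp3 in 16.1% and 4.92% (23.1% and 8.20%), Il17a in 3.45% and 24.6% (10 of 91 and 19 of 61 cells), Cxcr6 in 36.8% and 63.9% (51.6% and 75.4%) and Ikzf2 in 49.4% and 18.0% (63.7% and 45.9%). In thinned Csf1r cells, which should lack Trdc and whose median depth was 7050 and 7705 UMIs before thinning, Trdc was found in 0.312% and 0.120%. Keratin-rich cells, with a median of 12837.5 and 15762 UMIs, gave Trdc in 0 of 782 and 0 of 58 thinned cells, which allows a share of up to 0.384% and 5.17%. Areg was found in 42.5% and 49.2% of the thinned granzyme-low T cells (58.2% and 63.9%) but also in 36.8% and 39.7% of thinned keratin-rich cells and in 16.2% and 13.5% of thinned Csf1r cells. Krt14 was found in 20.7% of the thinned granzyme-low T cells of the library labelled PBS (45.1% unthinned) and in 0 of 61 of the library labelled DTX (13.1% unthinned), a value that allows a share of up to 4.92%, beside 16.5% and 4.18% of thinned Csf1r cells.

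The granzyme-high CD3 cells, 52 in the library labelled PBS and 44 in the library labelled DTX, were the nearest other cells. Their granzyme counts were set by the rule, and other genes were compared within each library. Il17a was at 125 CPM in granzyme-low and 12.1 CPM in granzyme-high cells of the library labelled PBS (log2 ratio 3.37, 2.08 to 5.03) and at 689 and 34.8 CPM in the library labelled DTX (4.31, 3.57 to 5.16). Areg was higher in granzyme-low cells by 0.88 (0.69 to 1.08) and 0.97 (0.78 to 1.16) on the log2 scale. Several genes of cytotoxic lymphocytes were lower in granzyme-low cells. Ccl5 had log2 ratios of -2.14 (-2.46 to -1.82) and -2.73 (-3.27 to -2.22), the perforin gene Prf1 -1.67 (-2.33 to -1.04) and -1.16 (-2.13 to -0.24), Klrd1, an NK cell receptor, -1.73 (-2.22 to -1.27) and -1.53 (-2.12 to -0.97), and Xcl1 -2.49 (-2.89 to -2.10) and -1.31 (-1.89 to -0.75). Others did so in the library labelled PBS but had an interval that included 0 in the library labelled DTX. Klrk1, an activating receptor, had log2 ratios of -0.81 (-1.19 to -0.43) and 0.20 (-0.22 to 0.63), and Ctsw, a cathepsin of cytotoxic cells, -1.12 (-1.39 to -0.85) and -0.30 (-0.61 to 0.01). Tyrobp, an adaptor of NK and myeloid receptors, and Cd74, the invariant chain, were lower too, with -3.55 and -2.25 for Tyrobp and -2.18 and -2.73 for Cd74.

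The makeup of the granzyme-high cells did not move in the same way for each class. Trdc was found in 18 of 52 (34.6%) and 19 of 44 (43.2%), and Foxp3 in 17 of 52 (32.7%) and 13 of 44 (29.5%). Fcer1g-low Trdc cells were 1 of 52 and 8 of 44. Foxp3 was at 124 CPM and 109 CPM in granzyme-high cells, beside 139 and 30.2 CPM in granzyme-low cells. Klrg1 was at 141 and 144 CPM in granzyme-high cells beside 87.0 and 16.1 CPM in granzyme-low cells. The lower level of Foxp3 and Klrg1 in the library labelled DTX was thus seen in granzyme-low cells, with intervals below 0, whereas the interval for Klrg1 in granzyme-high cells (0.03, -0.51 to 0.57) includes 0, and the difference between the 2 kinds of cells was not tested. Ikzf2 was lower in the library labelled DTX in granzyme-high cells as well (-1.09, -1.35 to -0.85).

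The genes outside the rule that set the granzyme-low T cells most apart from all other filtered cells were 5830411N06Rik, Cd163l1, Il17f, Tcrg-C1, Trdc, Actn2, Tff1, Il17a, Cxcr6, Trat1, Lat, Trdv4, Cd247, Tnfrsf25 and Igkc, ordered by fold among genes with at least 50 UMIs. Trdc was at 1052 and 2657 CPM in them and at 8.10 and 15.1 CPM in all other cells of the 2 libraries. Cd163l1 was at 190 CPM against 0.640 CPM. Lat, Cd247 and Trat1 encode parts or partners of the T cell receptor signalling complex. Igkc, an immunoglobulin light chain, is a B lineage transcript and gave 59 UMIs in all. This order describes the cells as selected and was not tested. It pools 2 libraries whose levels differ, as for Il17f (95.3 and 575 CPM) and Igkc (85.3 and 16.1 CPM). A single cell of the library labelled DTX held 229 of the 342 pooled Il17f UMIs.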

How the data were processed

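Single-cell RNA-seq of 2 libraries was analysed, 1 labelled PBS and 1 labelled DTX, so that no test between groups could be made. The authors deposited raw UMI counts per gene and barcode, made per the labels with Cell Ranger 6.1.1 on mm10; the methods name another version. Quality filtering required 500 detected genes or more and no more than 6% of UMIs from mitochondrial genes. The methods also set an upper limit on genes per cell, which was used as an alternative only. Rule counts were taken from the raw UMI counts. UMIs were summed over the selected cells of each library and expressed as CPM. Log2 ratios carry exact conditional binomial 95% intervals, levels exact Poisson intervals and shares Clopper-Pearson intervals, all for counting error only. PCR copies were already merged by UMI. A gene was tested with at least 50 UMIs over both libraries and called at 2-fold. A count of 0 was set to a floor of 3 counts, per library, which makes the ratio a bound. Apart from the Foxp3 and Trdc pair, the share that a count of 0 allows is 3 counts of the total, which is below the Clopper-Pearson limit.

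The text names genes of the lists, the 10 largest rises and falls and the 15 leading genes outside the rule, plus genes given as chosen later; some genes that this rule names are not reported here. The selected cells and the lists were chosen with earlier results of these data known. Of the 10 epidermal γδ T cell genes, 1 was not found under its symbol. For shares, cells were thinned to 2000 UMIs (seed 1), and shallower cells were left out. Doublets were not removed; as an alternative the 8% highest Scrublet scores were (666 and 575 cells, among them 4 and 3 of the selected cells). Further alternatives changed the thresholds of the rule, the exclusion of other cell types, the minimum of UMIs, an added 10 CPM, the weighting of cells, and, chosen after the data were seen, the omission of the highest cell per gene and of cells with over 100 UMIs of keratinocyte, fibroblast, mural or Cst6 genes, and the division by Fcer1g. The calculations were tested on simulated data. Gene positions are those of GRCm38 and promoter sequences those of RefSeq GRCm38.p6. Analyses used Python 3.11.15, numpy 2.4.6, scipy 1.17.1, pandas 2.3.3, scanpy 1.11.5, anndata 0.12.19 and matplotlib 3.10.9.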

Additional observations from a re-analysis of the deposited data

Results flagged for a closer look

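Barcodes that the quality filter left out also held cells of this kind. In the library labelled PBS 37 barcodes outside the filter met the rest of the rule, with a median mitochondrial share of 9.55%, and 12 of them had a Trdc UMI, 2 a Foxp3 UMI and 3 a UMI of Il17a or Il17f. In the library labelled DTX there were 52, with a median of 7.51%, and 28 had a Trdc UMI, 1 a Foxp3 UMI and 19 a UMI of Il17a or Il17f. They were singled out because they lie outside the cells used above, and all 37 and all 52 exceeded the 6% limit on mitochondrial UMIs.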

How the results depend on the processing

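Over 16 alternatives, 50 results gave 472 values. The log2 ratio of the shares of filtered cells (-0.37) was 0.07 when the rule was applied after thinning, and the median over all genes was -0.0041 there. Among the single genes followed under these alternatives, Cd4 turned to -0.15 as a mean of single-cell CPM, and Il17f to -0.0018 with fewer than 2 granzyme UMIs. Areg, which passed no call, was at -0.46 with fewer than 2 granzyme UMIs and -0.04 without the highest cells. Of the other called genes, Col4a1 (-1.32), Ccl2 (-2.23) and Cxcl1 (-0.68) turned without the highest cells. Genes called higher numbered 29 with at most 2000 genes per cell, 30 when the rule was applied after thinning, and 317, 45 and 2214 at minima of 20, 100 and 1 UMIs. Genes called lower numbered 200 with no exclusion by Csf1r, collagen or keratin, 13 after thinning, 75 as a mean of single-cell CPM, 80 without the highest cells, and 203, 24 and 1567 at the same 3 minima. With at most 2000 genes per cell, 46 and 19 cells remained, the log2 ratio of the shares of filtered cells was -1.34, and in the library labelled DTX 0% had Foxp3 and 84.2% Trdc. The rule applied after thinning gave 8.05% and 22.8% of cells with Il17a or Il17f. The causes were not tested. No paired analysis was possible because each group had 1 library, and for the same reason no replicate could be left out. With 91 and 61 cells, classes of a few cells are known only within their wide intervals, and genes under 50 UMIs were not compared.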
